A study of Mus musculus with 25 samples.

Results

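The cytosolic ribosomal proteins are the proteins of the large and small subunits of the ribosome that translates nuclear-encoded mRNA. Their genes were taken by name from a table of liver expression: every symbol made of Rpl or Rps and a number, with or without a final a or x, together with Rplp0, Rplp1, Rplp2 and Rpsa. This gave 76 genes of the 24107 with finite values and a gene symbol, 46 of the large and 30 of the small subunit. Of these, 75 passed the filter on low values that 9372 genes passed in all; the one left out was Rpl24. Levels are deposited RPKM, which divides a gene's reads by its length in kilobases and by the depth of the library.

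Liver RNA came from 25 C57BL/6 mice in 5 groups of 5 animals. The mice had spent 5 weeks in parabiosis, in which a pair is surgically joined and shares blood. Young WT mice (5 months) had each been joined to an old mouse, and so had young mice of the same age that were heterozygous for Manf (written ManfHet, and called young heterozygous here). Old mice (21 months) were all WT and had been joined to another old mouse or to a young partner, either WT or heterozygous. The labels do not say how the Manf allele was made, which animal was joined to which, or when the tissue was taken. No library came from a mouse outside such a pair. The study asked how the partner's age and Manf genotype bear on the old liver.

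The cell makes ribosomal proteins in matched amounts, since each ribosome holds most of them in equal number, and they are among the most abundant transcripts of a liver cell. Their mRNAs carry a terminal oligopyrimidine (TOP) motif, a C at the cap followed by a run of pyrimidines, through which mTOR and the RNA-binding protein Larp1 set how far they are translated. The levels below are mRNA levels and hold no measure of translation.

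The first bases of the transcripts are shown because the TOP motif lies in them. RefSeq (GRCm38.p6) gave a start for 56 of the 76 genes. The 40 bases from 25 before the start to 15 from it are printed 5′ to 3′, with capitals for an unbroken pyrimidine run that begins with C at the annotated first base.
Rps6: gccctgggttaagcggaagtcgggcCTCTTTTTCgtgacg
Rps27: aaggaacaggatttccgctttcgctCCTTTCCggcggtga
Rps21: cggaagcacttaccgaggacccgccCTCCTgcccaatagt
Rpl14: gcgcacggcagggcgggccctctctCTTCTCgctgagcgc
Rpl28: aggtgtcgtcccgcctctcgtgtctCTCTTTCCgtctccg
Rpl35a: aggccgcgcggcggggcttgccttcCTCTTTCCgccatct
Rplp0: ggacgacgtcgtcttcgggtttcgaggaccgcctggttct
Rps9: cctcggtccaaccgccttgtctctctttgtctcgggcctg
These lie at chr4:86857353-86857392 (- strand), chr3:90213634-90213673 (- strand), chr2:180257354-180257393 (+ strand), chr9:120571492-120571531 (+ strand), chr7:4792940-4792979 (+ strand), chr16:33056457-33056496 (+ strand), chr5:115559442-115559481 (+ strand) and chr7:3704016-3704055 (+ strand). Rps6 had the run CTCTTTTTC, Rps27 the run CCTTTCC, and Rpl28 and Rpl35a both CTCTTTCC. Rplp0 and Rps9 are shown as examples whose annotated first base was not C, so neither holds a run that begins with C at that base. In Rplp0 the base is G. In Rps9 it is a T inside a pyrimidine run that begins upstream of it. The motif searched was C at the annotated start on the transcribed strand followed by at least 4 bases that are each C or T. It was held by 13 of the 56 genes (23.2%), by 223 of 7331 other genes that passed the filter (3.04%) and by 3.01% of all 27025 genes with a RefSeq start. In a second search the run could begin within 10 bases of the annotated start, but its C had to follow a base other than C or T. The shares were then 46.4% and 29.8%. This search did not contain the first. The run of Rpl28, for example, extends upstream to a T that follows a G, so it holds no such C and was not counted. An annotated start can lie some bases from the true cap, so a window without the run says only that those letters are not at that base.

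The ribosomal protein genes stood far above the typical liver gene. Their median mean level over 25 libraries was 84.3 RPKM, against 4.17 RPKM over all 9372 genes, and 31 of the 76 had a mean of at least 100 RPKM. Rplp1, which with Rplp2 forms the acidic stalk that recruits elongation factors, was highest at a mean of 499 RPKM. Rps12 followed at 321, Rps15 at 242 and Rpl8, near the peptidyl transferase centre, at 232 RPKM. At the other end, 6 genes had a mean under 25 RPKM. Rps15a averaged 14.1 RPKM, Rps19, the gene most often mutated in Diamond-Blackfan anaemia in humans, 18.8 RPKM, and Rpl22 24.6 RPKM. The median was 105 RPKM for genes of the small subunit and 68.7 RPKM for those of the large subunit.

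Much of this spread followed the length by which the reads were divided. The gene models ran from 404 to 6270 bases with a median of 1730, although the main mRNA of these genes had a median of 680.5 bases in GENCODE M21 (mm10). Across 75 genes, mean RPKM and gene-model length had a Spearman rho of -0.73. When the same reads were divided by the length of the main mRNA, rho was -0.28, and the ratio of the 90th to the 10th percentile narrowed from 6.19 to 2.72. On that scale Rps15a, last but 2 in RPKM, stood at 138 per kb and Rps19 at 139, near Rpl14 at 136. Genes do not serve as independent replicates in these correlations, which are given as descriptions. The order of the genes by RPKM is thus partly an order of annotated lengths, while comparisons of 1 gene between livers use the same length throughout.

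**Figure D1:**
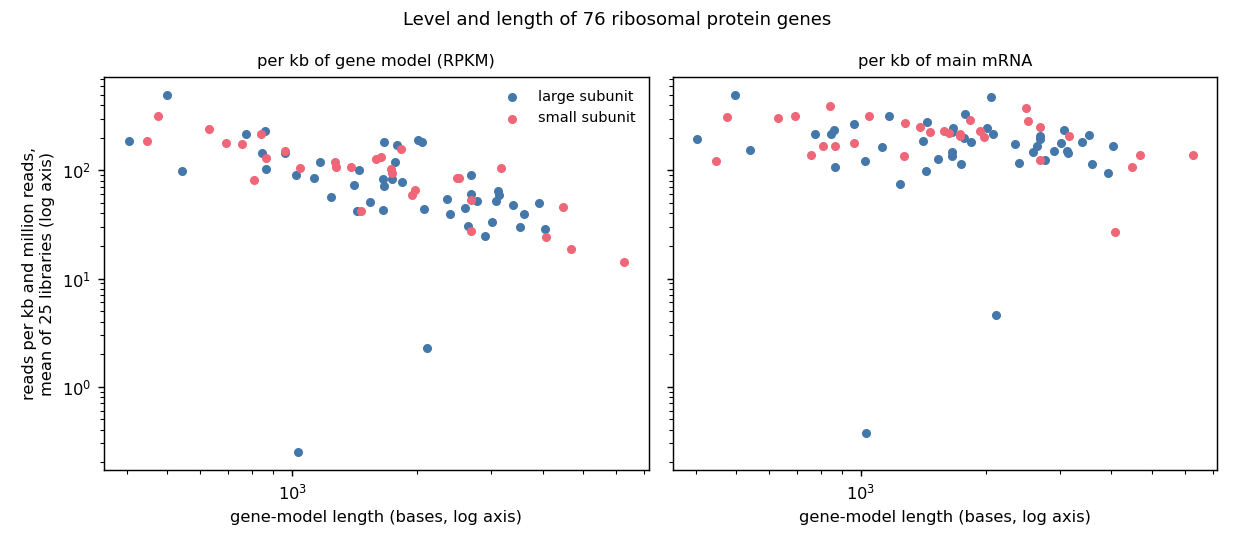
Mean level of each of the 76 genes over 25 libraries against the length of its gene model, both on log axes; the left panel divides reads by gene-model length (RPKM) and the right panel by the length of the main mRNA, with colours for the 2 subunits. The downward slope on the left (rho -0.73 over 75 genes) is shallower on the right (-0.28), and Rpl24 and Rpl13a lie far below the others in both panels.

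Rpl24 and Rpl13a, both proteins of the large subunit, stood apart from the rest. Rpl24 averaged 0.247 RPKM on a median of 6 reads a library, and Rpl13a 2.26 RPKM on 118 reads. The other 74 genes rested on medians of 1331 to 9423 reads. In the annotation, Gm28037 lies over exons of Rpl24 on the same strand (chr16:55966275-55971435), and Gm45713, Mir5121 and Snord33 over those of Rpl13a (chr7:45125558-45128761). How reads in such shared exons were counted is not stated in the sources used here, and their part in the low values was not tested. In all, 297 annotated pseudogenes were named after 59 of the genes, and how reads that match several places were counted is also not stated. Levels of single genes are uncertain for that reason.

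The libraries rested on 21.8 to 27.6 M reads behind the scaling. Ribosomal protein genes took 1.47 to 2.25% of the reads on genes. Checked against its label, the tissue held high levels of 15 hepatocyte markers, which summed to 33693 to 78801 RPKM and none was at 0 throughout a group. The albumin gene Alb alone took 8.69 to 18.1% of the reads on genes in old livers with heterozygous partners and 4.12 to 11.7% elsewhere. An abundant transcript that takes a larger share of the reads leaves less for all others, so each result is given as deposited and after median-of-ratios scaling, in which each library is divided by its median ratio to the typical library over 12964 genes. The factors were 0.848 to 0.981 in old livers with heterozygous partners and 0.944 to 1.13 in the other groups. Scaling moved the median of all tested genes between that group and old livers with old partners from -0.14 to 0.05 (log2). In a tissue sample, fewer cells of a type and less RNA per cell cannot be told apart.

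The summed level of the 76 genes varied most among old livers with old partners. In young WT livers the sums were 7206, 6396, 7208, 7399.6 and 8009 RPKM, and in young heterozygous livers 7160.4, 8104, 7373, 8046 and 7796 RPKM. In old livers with old partners they were 9069, 6949.6, 8994, 10512 and 7422 RPKM. Libraries 1, 3 and 4 of that group were above every young liver, and libraries 2 and 5 were within the young range. Old livers with WT partners read 7388, 8257, 7629, 7257 and 7607 RPKM, within the range of the young livers apart from library 2, which was slightly above it. Old livers with heterozygous partners read 8584, 6921, 6905, 6748 and 6969.5 RPKM, with library 1 far above the other 4.

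Group means of the sum were 7244 ± 577 RPKM in young WT livers and 7696 ± 415 in young heterozygous livers. In old livers they were 8589 ± 1427 with an old partner, 7627 ± 385 with a WT partner and 7226 ± 764 with a heterozygous partner (SD, n = 5 each). After scaling the means were 7419 ± 440 and 7609 ± 476 in the young groups, and 8083 ± 1123, 7246 ± 263 and 7952 ± 876 in the old groups in the same order. The scaling thus left the group with old partners highest, and moved the group with heterozygous partners from the lowest mean to the second highest. Library 1 of the latter group read 9412 RPKM after scaling, against 7761, 7524, 7959 and 7102 RPKM in its libraries 2, 3, 4 and 5, so its mean leans on 1 liver.

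**Figure D2:**
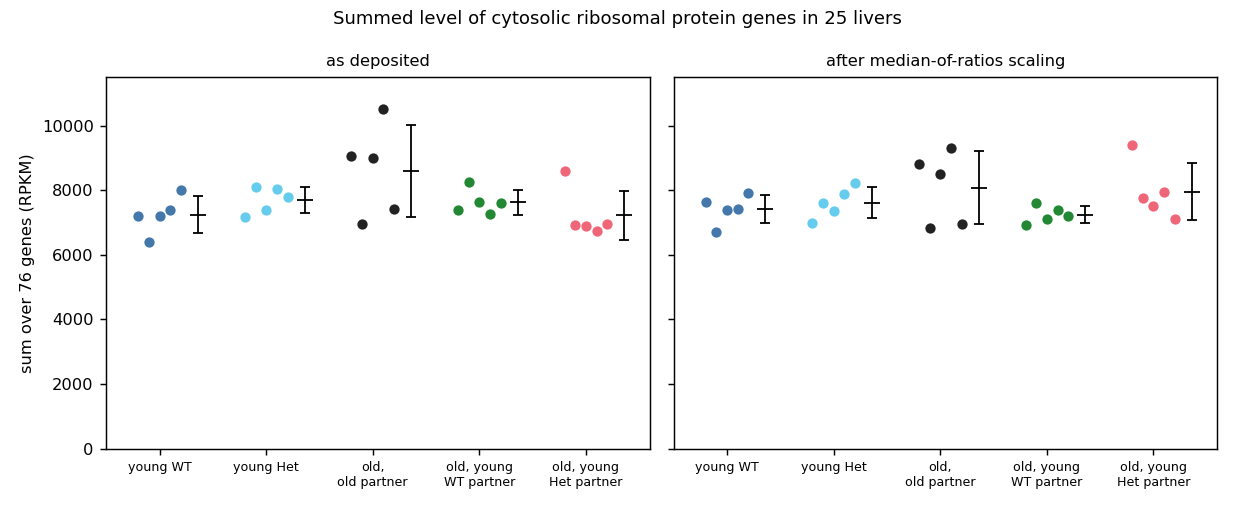
Sum of RPKM over the 76 genes in each of 25 livers, as deposited on the left and after median-of-ratios scaling on the right; each point is a liver and the bars show the group mean ± SD (n = 5). Livers 1, 3 and 4 with an old partner are above all 10 young livers as deposited, and liver 1 with a heterozygous partner is apart from the rest of its group.

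The genes moved together from liver to liver. With group means removed, the mean of the 75 genes accounted for 79.2% of their squared deviations (75.3% after scaling). For the mean of the other tested genes the share was 4.599% (0.141% after scaling). The scaling itself holds the typical gene nearly constant, so the second of these is low by design. The other genes are also no chosen set, so the contrast is a description. The shared share depends on how much each gene varies on its own. It was 61.0% for 17 elongation factors and other genes with TOP mRNAs, 49.1% for 73 nuclear-encoded respiratory chain subunits, 48.3% for 34 proteasome subunits and 24.97% for 74 mitochondrial ribosomal proteins. A single ribosomal protein gene varied by a median SD of 0.153 (log2) between livers of a group, and by 0.062 around the mean of the 75. Of the 75, 50 correlated with that mean at r over 0.9 across the 25 livers within groups; the mean includes the gene itself, and the libraries share their depth and scaling.

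**Figure D3:**
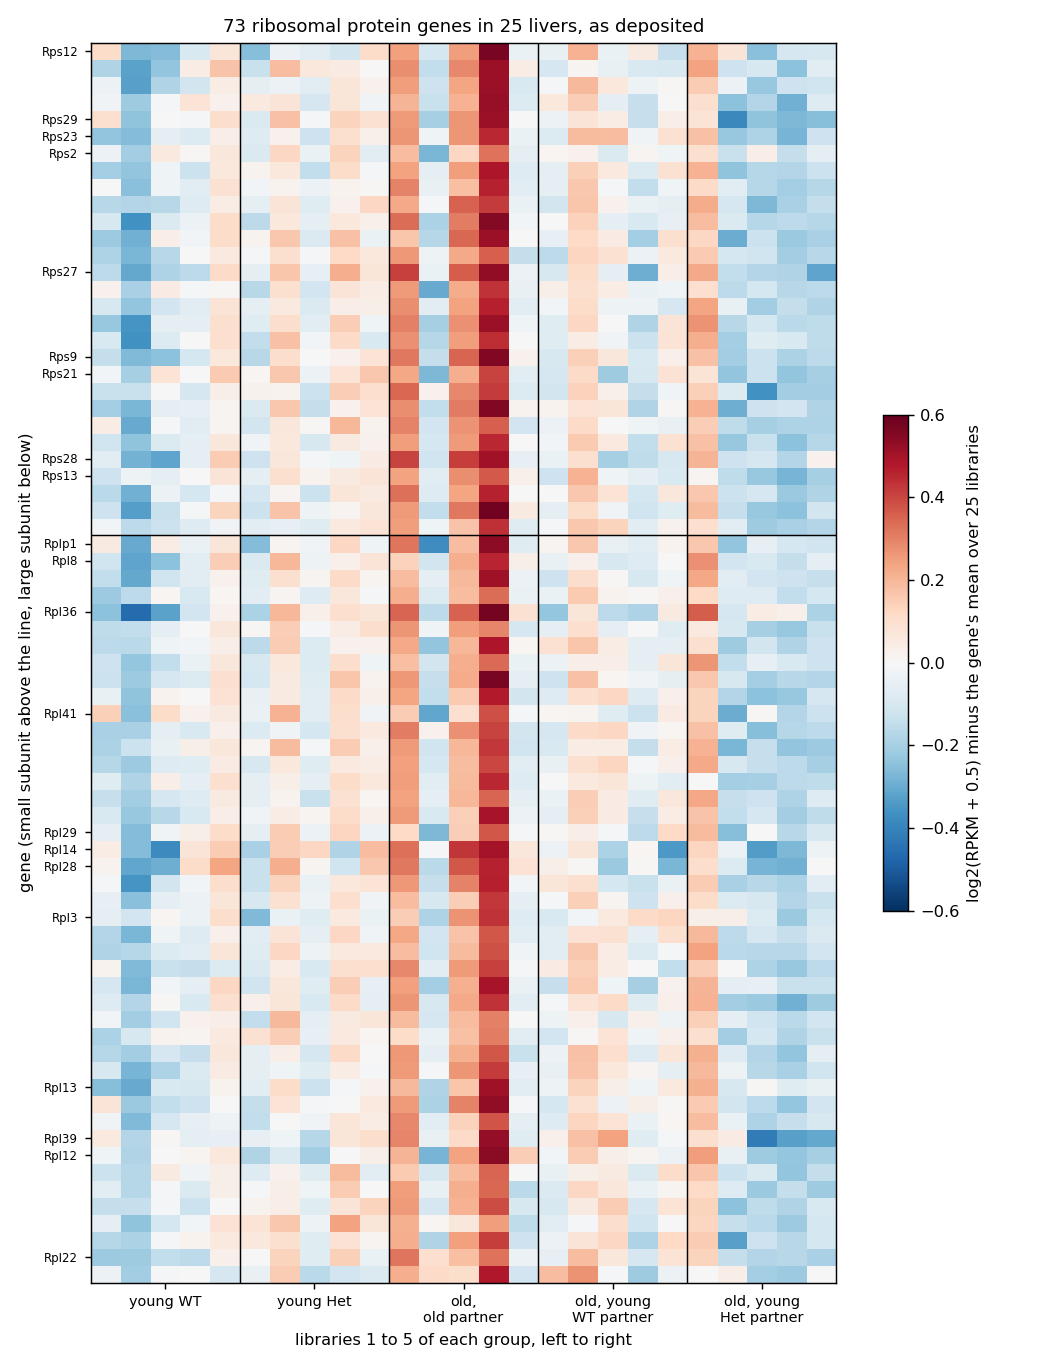
Level of 73 of the 75 genes in each of 25 livers as log2(RPKM + 0.5) minus the gene's mean, small subunit above the line and large subunit below, genes ordered by mean RPKM, with names for those picked by rule. Colours run down whole columns: liver 4 with an old partner is high for both subunits and liver 2 among young WT livers is low.

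A few genes departed from the common movement. These were picked out after their values had been seen. Rpl14 varied most around the mean of the 75, by an SD of 0.153, and Rpl28 and Rpl13a also varied widely, by 0.138 and 0.129. With the common movement removed, Rpl14 and Rpl28 tracked each other across the 25 livers (r = 0.91 within groups), and Rps12 tracked Rpl14 (r = 0.77). In young WT livers Rpl14 read 84.4, 68.4, 62.7, 86.4 and 91.3 RPKM and Rpl28 77.6, 61.6, 62.3, 82.6 and 90.3 RPKM, both low in libraries 2 and 3 and high in library 5. Old livers with WT partners read 79.99, 86.04, 71.9, 82.7 and 64.5 RPKM for Rpl14 and 78.5, 76.998, 65.6, 76.99 and 63.2 RPKM for Rpl28, with both lowest in library 5. Rpl14 and Rpl28 lie on chromosomes 9 and 7. By contrast, Rpl39, which lines the exit tunnel, and Rpl36 departed in opposite directions (r = -0.49).

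The first comparison asked what age does, with old livers joined to old mice set against young WT livers joined to old mice. All 75 genes were higher on average in the old livers, by 0.05 to 0.47 (log2, median 0.23, against a median of 0.08 over all genes). Of them 11 rose by limma's adjusted p and 0 fell, where 9.11% of all tested genes rose. After scaling 71 of 75 were still positive with a median of 0.12 (all genes -0.02), but 0 passed, where 3.38% of all genes rose, and 8 had an unadjusted p under 0.05 (55 as deposited). Those that rose were Rps6, Rps9, Rps20, Rps23, Rps27 and Rps28 of the small subunit and Rpl21, Rpl22, Rpl23, Rpl35 and Rpl36 of the large.

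Rpl36 had the largest difference. In young WT livers it read 155, 134, 147, 170.2 and 187 RPKM and in old livers with old partners 234, 165, 236, 274 and 196 RPKM. The groups overlapped in part, with library 2 of the old group below 2 of the young livers. The means were 159 ± 20.8 and 221 ± 41.8 RPKM, a difference of 0.47 ± 0.12 (SE, limma adjusted p = 0.0196; 0.35 and 0.0632 after scaling). Rps27, a zinc-binding protein of the small subunit, read 93.3, 83.9, 91.4, 93.2 and 113 RPKM in young WT livers and 139, 101, 134, 151 and 101 RPKM in the old livers. Its difference was 0.39 ± 0.12 (limma adjusted p = 0.0353), and libraries 2 and 5 of the old group lay within the young range. Rps9 read 75.99, 69.97, 70.7, 78.1 and 87.9 RPKM in the young group and 105, 76.1, 107, 124 and 85.5 RPKM in the old group. The overlap was of the same kind, and the difference was 0.36 ± 0.11 (limma adjusted p = 0.0316).

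Rps6, the substrate of S6 kinase downstream of mTOR, read 113, 112, 113, 120.0 and 130.5 RPKM in young WT livers and 148, 126, 162, 169.6 and 123 RPKM in old livers with old partners. It differed by 0.30 ± 0.094 (limma adjusted p = 0.0424; 0.203 after scaling), and 3 of the 5 old livers were above all young WT livers. Rplp0, the base of the stalk and a common reference gene, read 164, 164, 180.3, 182 and 188 RPKM in the young and 215, 156, 210.3, 257 and 185 RPKM in the old livers. It did not pass, with a difference of 0.20 ± 0.098 (95% interval -0.00011 to 0.40, limma adjusted p = 0.174). Rpsa, which also binds laminin, read 106, 90.8, 108, 103 and 104 RPKM in the young and 124, 84.2, 122, 141 and 101 RPKM in the old livers, and its lowest and highest values were both in the old group. Its difference was 0.14 ± 0.10 (95% interval -0.068 to 0.34, limma adjusted p = 0.379).

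The smallest differences were those of Rpl41, a very short peptide of the large subunit, at 0.048, Rps2, at the mRNA entry of the small subunit, at 0.082, and Rps21 at 0.099. Each turned slightly negative after scaling. Rpl41 read 131, 99.4, 128, 121 and 123 RPKM in young WT livers and 132, 95.3, 127, 155 and 118 RPKM in the old livers. Rps2 read 155, 137, 165, 159.7 and 166 and 180.2, 131, 173, 199 and 152 RPKM in the same groups, and Rps21 79.6, 70.1, 85.2, 80.6 and 89.8 and 94.7, 66.7, 93.8, 107 and 76.8 RPKM. In each of these genes the old group held both the lowest and the highest of the 10 values.

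**Figure D4:**
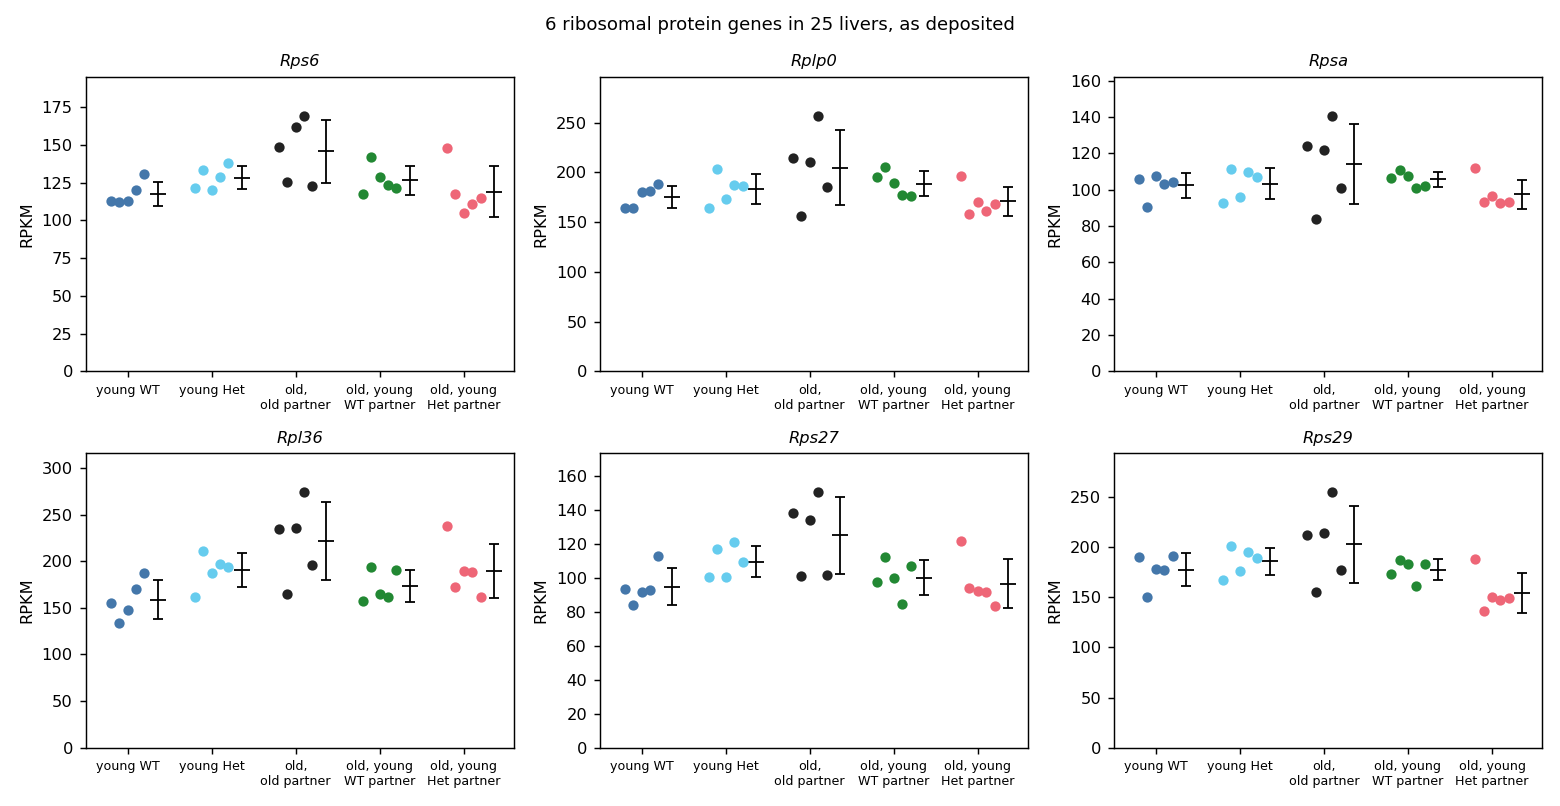
RPKM of 6 ribosomal protein genes in each of 25 livers as deposited, with group mean ± SD (n = 5) and each axis starting at 0. In all 6 genes liver 4 with an old partner is the highest of the 25, and livers 2 and 5 of that group lie near the young livers.

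The count rested on single livers. Without library 2 of the old group 47 genes passed (12.1% of all genes rose), and without library 5 of that group 20 (5.73%). Without library 1 or 3 of it 2 each passed (7.14% and 8.03%). Without library 4 none did (0, where 3.46% of all genes rose). Without young WT library 5 the count was 22 (10.3% of all genes rose). It was 4 each without young WT library 1 or 4 (7% and 7.43%), and 1 each without library 2 or 3 (5.36% and 4.13%). Library 4 of the old group also had the highest summed level of 15 Kupffer cell and macrophage markers, at 958.5 RPKM against 318.3 to 533.6 RPKM in the other 4, and of 12 T and NK cell markers (37.7 RPKM). In this comparison 1 of 15 tested Kupffer cell markers, 7 of 13 stellate cell markers and 2 of 4 B and plasma cell markers were higher. Of all genes 9.11% rose. The part of these cell types in the ribosomal result was not tested. The summed Kupffer markers ranged from 207 to 454 RPKM in young WT livers, and no marker of that list was at 0 throughout a group.

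Next, old livers with a WT partner were set against old livers with an old partner, to ask what a young partner does. All 75 genes were lower on average with the young partner, by 0.07 to 0.36 (log2, median -0.14 against -0.01 over all genes). None passed (0 of 75 by limma, where 1.17% of all genes were called; 11 had an unadjusted p under 0.05). Scaling left this almost as it was, with a median of -0.13, 0 called where the background was 1.87%, and 10 at an unadjusted p under 0.05. The old livers with old partners are also in the comparison above, so the differences here and there rest on shared livers and are no separate evidence of each other.

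Rpl14 differed most, at -0.36 ± 0.12 (95% interval -0.61 to -0.10, limma adjusted p = 0.143). It read 103, 81.2, 110.4, 116 and 85.99 RPKM with an old partner and 79.99, 86.04, 71.9, 82.7 and 64.5 RPKM with a WT partner, and the groups overlapped in libraries 2 and 4 of the WT-partner group and 2 and 5 of the other. Rpl36 was at -0.33 and read 157, 193, 165, 162 and 191 RPKM with the WT partner, where all 5 livers were below 4 of the 5 livers with old partners. Rps28 was at -0.31, with 54.98, 38.01, 55.3, 58.9 and 39.9 RPKM against 40.2, 44.3, 35.999, 37.1 and 38.6 RPKM, and only libraries 2 and 5 with old partners reached into the range of the other group. The smallest differences were those of Rpl3, at the peptidyl transferase centre (-0.078), Rps2 (-0.072) and Rpl29 (-0.072). Rpl3 read 71.9, 56.9, 78.3, 87.7 and 61.4 RPKM with an old and 60.9, 64.1, 67.5, 70.2 and 70.9 RPKM with a WT partner, and Rps2 159.8, 161, 149, 160.5 and 156 RPKM with the WT partner. For Rpl29 the values were 91.5, 69.8, 93.3, 109 and 83.9 and 84.8, 86.6, 83.4, 75.6 and 91.5 RPKM. In all 3 genes the livers with WT partners lay inside the range of the livers with old partners. Rps6 read 117, 142, 129, 123 and 121 RPKM with the WT partner, at -0.19 ± 0.094 (95% interval -0.39 to -0.00074). For Rplp0 the values were 196, 206, 189, 177 and 176 RPKM, at -0.099 ± 0.098 (95% interval -0.30 to 0.10). Rpsa read 107, 111, 107, 101 and 102 RPKM, at -0.092 ± 0.10 (95% interval -0.30 to 0.11).

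With a heterozygous partner the deposited values were lower still, but the calls depended on the scale. As deposited, 26 of 75 genes fell against old livers with old partners and 0 rose, where 22.7% of all tested genes fell. All 75 were negative with a median of -0.24, and so was the median of all genes (-0.14). After scaling 0 passed, where 5.67% of all genes fell, none (0) had an unadjusted p under 0.05, and 50 of the 75 were negative with a median of -0.03 (all genes 0.05). The count of 26 thus stands in a comparison in which 2126 of all 9372 genes fell as deposited.

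Rps29, a small zinc-binding protein close to the mRNA path, had the largest difference. It read 212, 155, 213, 255 and 177 RPKM with an old partner and 188, 136, 150.3, 147 and 149 RPKM with a heterozygous partner, where 4 of 5 livers were below every liver with an old partner. The difference was -0.38 ± 0.11 (limma adjusted p = 0.0136) as deposited and -0.16 (adjusted p = 0.279) after scaling. Rpl14 read 89.6, 79.96, 64.8, 67.9 and 80.2 RPKM with the heterozygous partner, at -0.37 ± 0.12 (limma adjusted p = 0.0338). Rps27 read 122, 93.8, 92.2, 91.9 and 83.6 RPKM, with library 1 of the group apart from the other 4, at -0.36 ± 0.12 (limma adjusted p = 0.0265). Rps6 read 148, 118, 105, 111 and 115 RPKM and fell by 0.29 ± 0.09 (limma adjusted p = 0.0298; -0.068 and 0.658 after scaling).

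Of the genes that fell, 15 were of the 30 tested in the small subunit and 11 of the 45 in the large; the difference between the subunits was not tested. They included Rps3, Rps10, Rps14, Rps19, Rps20, Rps23 and Rps26, Rps27a, which encodes a ribosomal protein fused to ubiquitin, and Rpl10, a protein that joins the large subunit late in its assembly. Rps13 had the lowest adjusted p, 0.00475, at -0.34 ± 0.079, and stood at -0.12 after scaling. The smallest differences were those of Rpl29 (-0.14), Rpl13 (-0.13) and Rps2 (-0.099), which all became positive after scaling. Rpl13 read 50.8, 39.03, 49.8, 63.3 and 42.4 RPKM with an old and 51.4, 41.4, 44.6, 42.1 and 42.9 RPKM with a heterozygous partner. Rpl29 read 96.1, 70.5, 84.4, 74.97 and 78.8 RPKM and Rps2 169.7, 145, 163, 144 and 153 RPKM with the heterozygous partner. These values lay within the range of the livers with old partners. Rplp0 read 196, 158, 169.9, 162 and 168 RPKM and Rpsa 112, 93.2, 96.6, 92.6 and 93.3 RPKM. Neither passed: Rplp0 was at -0.24 ± 0.098 (limma adjusted p = 0.0701) and Rpsa at -0.21 ± 0.10 (limma adjusted p = 0.121).

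Single livers moved this count from 3 to 62. It was 62 without library 2 of the group with old partners, 47 without library 5 of that group, and 5, 7 and 3 without its libraries 1, 3 and 4. It was 57 without library 1 of the group with heterozygous partners, and 12, 8, 5 and 20 without its libraries 2, 3, 4 and 5. Over all genes the share that fell in these fits ran from 12.4% (without library 4 of the heterozygous-partner group) to 28.6% (without its library 5). With Alb left out of the library totals 3 genes fell, where 13.3% of all genes fell. In the group with heterozygous partners 13 of 15 tested Kupffer cell markers, 11 of 13 stellate cell markers and 12 of 15 sinusoidal endothelial markers were lower than with old partners (12, 7 and 4 after scaling). Of all genes 22.7% fell as deposited and 5.67% after scaling. The Kupffer markers summed to 87.0 to 268 RPKM with heterozygous and 318 to 958.5 RPKM with old partners. The 15 hepatocyte markers summed to 48262 to 78801 RPKM against 42637 to 57811 RPKM. No Kupffer cell or hepatocyte marker was at 0 throughout a group. The part of these cell types in the ribosomal result was not tested.

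**Figure D5:**
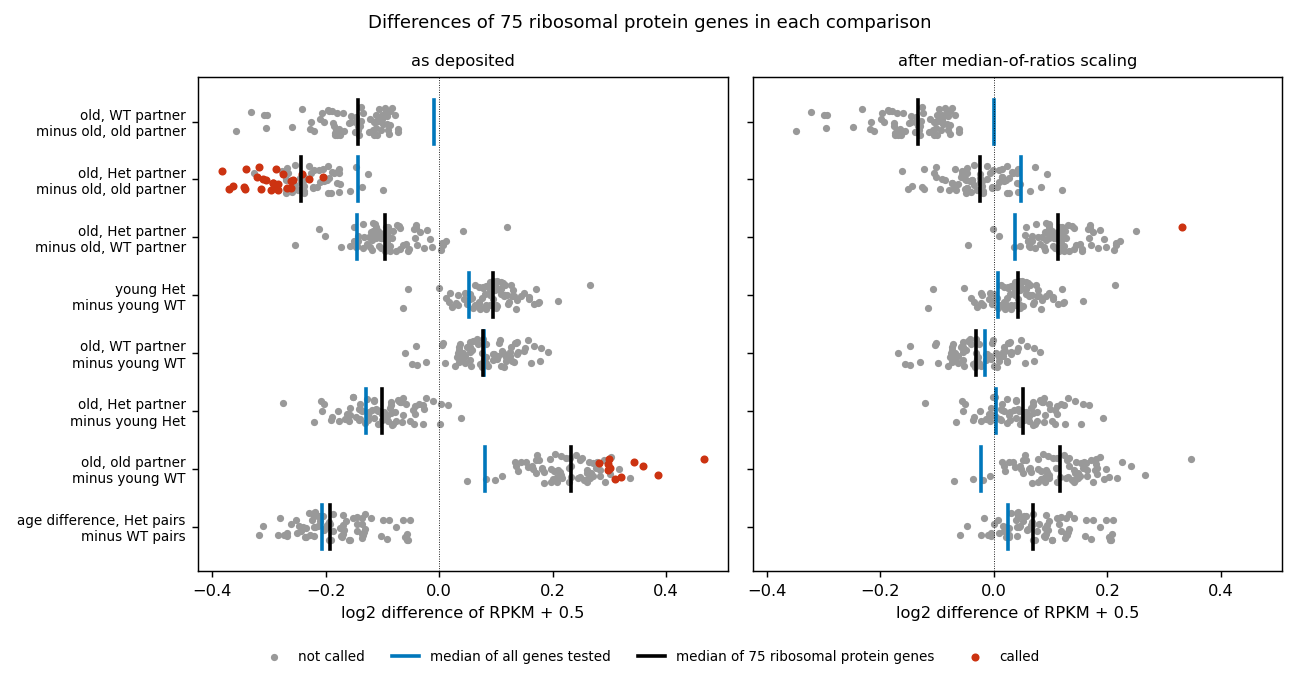
Log2 differences of the 75 genes in each of the 7 comparisons and in the difference of the age differences, as deposited on the left and after median-of-ratios scaling on the right; red points passed limma's adjusted p, black bars mark the median of the 75 genes and blue bars that of all 9372 genes. Calls stand in 2 comparisons on the left, both with old livers with old partners, and in 1 gene (Rpl36) on the right.

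The 2 groups of old livers with young partners differ in the partner's Manf genotype. With the heterozygous partner 69 of 75 genes were lower as deposited (median -0.10, all genes -0.14), and after scaling 73 of 75 were higher (median 0.11, all genes 0.04). As deposited 0 passed, where 32.7% of all genes were called in either direction, and 2 had an unadjusted p under 0.05. After scaling 1 rose, where 12.4% of all genes rose. That gene was Rpl36, at 0.33 with an adjusted p of 0.0494 by limma after scaling, and at 0.12 ± 0.12 (adjusted p = 0.464) as deposited. It read 157, 193, 165, 162 and 191 RPKM with a WT partner and 237, 172, 190.0, 188 and 161 RPKM with a heterozygous partner, and the groups overlapped except for library 1 of the latter. The call was lost when the scaling used only the tested genes (0 passed, where 8.93% of all genes rose).

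At the other end as deposited stood Rpl39 (-0.25 ± 0.11), Rps29 (-0.21) and Rps23, at the decoding centre (-0.20). Rpl39 read 42.6, 47.1, 49.4, 39.5 and 41.5 RPKM with a WT partner and 44.6, 43.1, 31.001, 33.2 and 33.6 RPKM with a heterozygous partner, where libraries 3, 4 and 5 were below all livers with WT partners. Rps29 read 173, 187, 183, 161 and 183 RPKM with the WT partner, and 4 of 5 livers with heterozygous partners were below all of these. Rps23 read 163, 197, 196, 170.0 and 184 and 195, 147, 152, 142 and 158 RPKM, again with 4 of 5 livers with heterozygous partners below all the others. Rpl8 (0.012) and Rps28 (0.043) were the most positive after Rpl36. Rpl8 read 223, 235, 215, 218 and 229.9 and 279, 212, 216, 209 and 221 RPKM, and Rps28 40.2, 44.3, 35.999, 37.1 and 38.6 and 47.7, 37.8, 38.5, 36.6 and 42.02 RPKM in these groups. Rps6 was at -0.094 ± 0.094, Rplp0 at -0.15 ± 0.098 and Rpsa at -0.12 ± 0.10, none past the threshold. Without library 1 of the group with heterozygous partners 4 genes passed as lower, where 25.5% of all genes did. Without its library 2 a single gene (1) did, where 24.4% of all genes did. In the same comparison 12 of 15 Kupffer cell markers, 10 of 13 stellate cell markers and 12 of 15 sinusoidal endothelial markers were lower (12, 5 and 8 after scaling). Of all genes 29.6% fell as deposited and 7.89% after scaling. The part of these cell types was not tested. The ribosomal differences also varied with the GC content of the main mRNA (Spearman rho 0.37 across 75 genes, a description), where rho was 0.35 for the difference of the age differences, which uses the same old livers, and -0.24 to 0.13 in the other 6.

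Between the young livers, heterozygous animals had the higher mean in 73 of 75 genes (median 0.09, all genes 0.05). None passed (0 of 75, where 5.13% of all genes were called), and 3 had an unadjusted p under 0.05. After scaling the median was 0.04, 62 of 75 were positive and 0 passed, where the background was 4.56%. Rpl36 was again first, at 0.27 ± 0.12 (95% interval 0.011 to 0.52, limma adjusted p = 0.212). It read 161, 211, 188, 197 and 194 RPKM in young heterozygous livers, of which 4 were above every young WT liver. Rps27, at 0.21, read 100.4, 117, 101, 121 and 109 RPKM in heterozygous livers. The lowest were Rpl12, near the stalk base (-0.064), Rpl3 (-0.055) and Rplp1 (0.00048). Rpl12 read 38.9, 34.8, 39.5, 40.02 and 41.3 and 34.8, 37.2, 34.1, 39.5 and 40.5 RPKM, and Rpl3 62.6, 59.8, 65.5, 63.4 and 69.9 and 53.9, 63.1, 61.6, 67.6 and 63.2 RPKM. Rplp1 read 513, 401, 509.9, 482 and 520.0 RPKM in WT and 413, 499.7, 487, 539 and 486 RPKM in heterozygous livers. For these 3 genes the 2 groups overlapped. Rps6 read 122, 133, 120.2, 129 and 138 RPKM in heterozygous livers (0.13 ± 0.094), Rplp0 165, 204, 173, 187 and 187 RPKM (0.058 ± 0.098) and Rpsa 92.7, 111, 96.1, 109.9 and 107 RPKM (0.012 ± 0.10).

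Old livers were then compared with the livers of the young mice of the same kind of pair, group against group. In the WT pairs 70 of 75 genes were higher in the old livers, with a median of 0.08 that equalled that of all genes, and after scaling 51 were lower, with a median of -0.03 (all genes -0.02). No gene (0 of 75) passed, where 0.117% of all genes were called, and 1 had an unadjusted p under 0.05 (0 after scaling, where the background was 0.0960%). Rps23 was most positive at 0.19 ± 0.097, followed by Rpl13 at 0.18 and Rpl22 at 0.18. Rps23 read 146, 144, 166, 163 and 177 RPKM in the young livers and Rpl13 37.1, 35.8, 41.6, 41.4 and 45.01 RPKM in the young and 43.4, 48.8, 45.4, 43.5 and 46.2 RPKM in the old livers. Rpl22 read 20.98, 21.02, 22.02, 21.9 and 24.96 and 23.6, 27.9, 25.6, 22.8 and 25.9 RPKM, with all 5 old livers above 4 of the 5 young ones. Among the most negative were Rps21 (-0.049) and Rpl28 (-0.040). Rps21 read 79.6, 70.1, 85.2, 80.6 and 89.8 RPKM in the young and 74.96, 87.2, 69.3, 75.1 and 85.3 RPKM in the old livers. These groups overlapped.

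In the heterozygous pairs 71 of 75 genes were lower in the old livers (median -0.10, all genes -0.13), and after scaling 60 were higher (median 0.05, all genes 0.003). As deposited 0 passed, where 5.55% of all genes were called and 7 of the 75 had an unadjusted p under 0.05; after scaling 0 passed, where the background was 1.10%, and 0 had an unadjusted p under 0.05. Rps29 was lowest at -0.28 ± 0.11 (95% interval -0.50 to -0.055, limma adjusted p = 0.097). It read 168, 201, 176, 195 and 189.5 RPKM in young heterozygous livers, and 4 of the 5 old livers joined to such mice were below all of them. Rps21, at -0.22, read 81.2, 89.9, 78.5, 85.1 and 90.1 RPKM in young and 85.2, 68.1, 73.6, 68.1 and 70.01 RPKM in old livers. Rps13, at -0.21, read 26.4, 29.4, 27.8, 28.4 and 28.99 and 27.8, 24.6, 23.3, 22.5 and 23.8 RPKM. At the other end were Rps12 (0.039), Rpl13 (0.015) and Rpl3 (0.0030), which lay near no difference. Rps12 read 267, 311, 305, 294 and 343 and 367, 335, 267, 297 and 298 RPKM.

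The test of whether the age difference itself differed between the heterozygous and the WT pairs called 0 of the 75 genes (background 0.0107%, 4 at an unadjusted p under 0.05). All 75 were negative with a median of -0.19, beside -0.21 over all genes, and after scaling the median was 0.07, with 0 called (background 0%) and 0 at an unadjusted p under 0.05. Rpl22, at -0.32 ± 0.11 (limma adjusted p = 0.0921), Rps23 and Rpl39 were lowest, and Rpl3, Rps12 and Rpl12 highest at -0.052, -0.056 and -0.054. Without library 4 of the old livers with WT partners 1 gene passed, where 13.2% of all genes were called.

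The name rule leaves out 9 tested ribosomal protein genes and near copies. Of these, 0 passed in old livers with old partners against young WT livers (median -0.00, 4 positive), where 9.11% of all genes rose. With heterozygous against old partners 3 fell, where 22.7% of all genes fell. Fau, which encodes a ribosomal protein fused to a ubiquitin-like peptide, stood at 149 ± 20.9 RPKM in young WT livers and 190.2 ± 33.5 RPKM in old livers with old partners (0.35 ± 0.11, limma adjusted p = 0.0511). With heterozygous partners Fau stood at 151 ± 21.96 RPKM and fell by 0.33 ± 0.11 against old partners (limma adjusted p = 0.0412). Rps3a1 also fell there, from 248 ± 29.1 to 208 ± 26.3 RPKM (limma adjusted p = 0.0337), and so did Rpl36al. All 3 calls were lost after scaling. Of the near copies, Rpl22l1, a paralogue of Rpl22, stood at 9.82 ± 1.98 RPKM in young WT livers and 8.0002 ± 1.72 RPKM in old livers with old partners. Its difference of -0.28 ± 0.14 was opposite in sign to that of Rpl22 and did not pass (limma adjusted p = 0.178). Rps27l, the paralogue of Rps27, was at 98.1 ± 4.18 and 98.2 ± 7.83 RPKM in the same groups.

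Other genes with TOP mRNAs were higher with the ribosomal protein genes in old livers with old partners. Of 17 elongation factors and other such genes, 11 rose against young WT livers (9.11% of all genes), with a median of 0.25, and 3 rose after scaling, where the background was 3.38% and the list's median was 0.13. Npm1, a nucleolar chaperone of ribosome assembly, rose from 32.1 ± 2.88 to 43.3 ± 3.93 RPKM (0.43 ± 0.090, limma adjusted p = 0.00654; 0.0343 after scaling). Hnrnpa1, an RNA-binding protein, rose by 0.47 ± 0.10 (limma adjusted p = 0.00782) and Eif4b, an initiation factor that is itself a substrate of S6 kinase, by 0.46 ± 0.11 (limma adjusted p = 0.0132). These 3 are the ones that passed on both scales. With heterozygous against old partners 5 of the 17 fell (22.7% of all genes), among them Eef1b2 (-0.31 ± 0.089, limma adjusted p = 0.015) and Tpt1 (-0.30 ± 0.090, limma adjusted p = 0.0219), and 0 after scaling. With WT against old partners 0 passed, and 16 of the 17 were negative with a median of -0.13.

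The snoRNA hosts, whose short-lived spliced RNAs also begin with the TOP motif, differed between the young groups as well. In young heterozygous against young WT livers 4 of 6 rose (3.72% of all genes) and 0 after scaling, with list medians of 0.40 before and 0.35 after it. Gas5 went from 11.98 ± 0.918 to 14.9 ± 1.14 RPKM (limma adjusted p = 0.0435), and Snhg6 from 4.27 ± 0.632 to 5.85 ± 0.886 RPKM (limma adjusted p = 0.0296). In old livers with old partners Gas5 was at 16.3 ± 1.46 RPKM, 0.43 ± 0.087 against young WT livers (limma adjusted p = 0.00498; 0.0285 after scaling). Against old livers with WT partners, those with heterozygous partners had 3 of 6 hosts higher, where 288 of all 9372 genes rose. After scaling 4 hosts were higher, where 12.4% of all genes rose.

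Few of the factors that build ribosomes passed. Of 63 ribosome biogenesis genes, 4 rose and 1 fell in old livers with old partners against young WT livers, with a median of 0.04, and the counts became 1 and 4 after scaling. Of all genes 9.11% rose there as deposited, and 3.38% rose and 5.61% fell after scaling. Ncl, the nucleolar protein nucleolin, was the gene that rose on both scales, from 9.59 ± 0.778 to 12.7 ± 1.27 RPKM (0.39 ± 0.078, limma adjusted p = 0.00496; 0.0268 after scaling). In young heterozygous against young WT livers 5 of 63 rose (3.72% of all genes), among them Ncl at 12.5 ± 1.08 RPKM (limma adjusted p = 0.0105), Sbds, which helps release a factor from new large subunits, at 23.3 ± 1.38 against 17.99 ± 2.14 RPKM (limma adjusted p = 0.0132), and Nop2. After scaling 4 of the 63 rose and 1 fell, where 2.3% of all genes rose and 2.25% fell. Of 13 genes of RNA polymerase I and its factors, which make the precursor of rRNA, 2 rose in old livers with old partners, Ubtf (0.40 ± 0.090, limma adjusted p = 0.00902) and Taf1b (0.51 ± 0.13, limma adjusted p = 0.0188), on both scales. Of 30 initiation factors 2 rose there (median 0.028), while 0 rose and 2 fell after scaling (median -0.090). Of 26 genes of mTOR signalling and TOP regulation 1 rose (Rragc, a GTPase that signals amino acids to mTOR; limma adjusted p = 0.0262) and 0 passed after scaling.

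As deposited, other large complexes had medians near 0 in old livers with old partners against young WT livers. Of 74 mitochondrial ribosomal proteins 1 rose and 2 fell (median 0.01), of 34 proteasome subunits 0 passed (median -0.03) and of 73 respiratory chain subunits 0 passed (median 0.02). After scaling their medians were -0.10, -0.15 and -0.097 (all genes -0.02), and 8, 11 and 5 of them fell, where 5.61% of all genes fell. The cytosolic ribosomal proteins kept a positive median in the same fit on both scales, 0.23 and 0.12. With heterozygous against WT partners the order was another: 30 of 74 mitochondrial ribosomal proteins and 23 of 34 proteasome subunits fell as deposited (29.6% of all genes), against 0 of 75 cytosolic ones. After scaling 0 genes of either list fell, 7 and 1 rose, and the medians were 0.031 and -0.0046. The differences between these lists were not tested.

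In the 3 comparisons with old livers with old partners, the medians of the ribosomal protein genes differed a little by subunit and by start sequence. In old livers with old partners against young WT livers the median was 0.26 for 30 genes of the small subunit (6 rose) and 0.21 for 45 of the large (5 rose). With WT against old partners the medians were -0.18 and -0.12, and with heterozygous against old partners -0.27 and -0.22. The 13 genes with a pyrimidine run at the annotated start had medians of 0.26, -0.18 and -0.27 in these comparisons, and the 42 with a start but no run 0.22, -0.13 and -0.24. In old livers with WT partners against young WT livers the medians were 0.075 for the small and 0.082 for the large subunit, and 0.068 with and 0.089 without the run. With heterozygous against WT partners they were -0.10 and -0.095 by subunit and -0.094 and -0.11 by start. The first 3 comparisons share the livers with old partners, and the differences between the sets of genes were not tested.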

How the data were processed

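Liver RNA was extracted with Trizol from flash-frozen tissue and sequenced with a stranded mRNA kit, per the labels' protocols. Per the submitters' processing notes, STAR 2.4.2a, HTSeq and the mm10 build were used; how strand and multiply matching reads were handled is not given in the sources used here. The deposited values are RPKM, made by the authors, in 1 table of 60354 entries, of which 24107 with finite values and a gene symbol were kept.

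Depth was recovered from the low RPKM values, which are whole multiples of 1 read (within 0.02 reads), and averaged 24.87 ± 1.42 M (SD, n = 25). Those that reached 1 RPKM in 5 or more libraries (9372 genes) were tested with limma 3.58.1 in R 4.3.3 on log2(RPKM + 0.5), with 1 model over the 5 groups, 20 residual degrees of freedom and Benjamini-Hochberg adjustment at 0.05; differences are on that scale and understate low genes. The labels give separate animals. The test was tried on simulated data. Median-of-ratios scaling, other pseudocounts (0.1 and 1), no filter, Alb left out, a replicate block, fits of only the groups compared, voom on recovered reads and libraries left out in turn were the alternatives, of which voom, scaling over the tested genes and totals of reads on genes were chosen after seeing the data.

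The genes and lists were chosen with earlier results of these data known. In each comparison the 3 lowest and 3 highest ribosomal protein genes were named, with Rplp0, Rps6 and Rpsa; other genes that are named were chosen after their values were seen. Results of 2 of the named genes are not reported here. Sequences are from RefSeq.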

Additional observations from a re-analysis of the deposited data

Results flagged for a closer look

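In 130 groups of 5 values (the summed level and the named genes in each group), 10 held a highest or lowest value far from the other 4 by Dixon's criterion (gap to range over 0.71); chance gives about 1 in 20 groups. Of the 10, 7 were the same liver, library 1 of the old livers with heterozygous partners. Its summed ribosomal protein level was 8584 RPKM against 6748 to 6970 RPKM in the other 4. It read 111.8 RPKM for Rpsa (others 92.65 to 96.56), 187.9 for Rps29 (135.9 to 150.3), 121.8 for Rps27 (83.58 to 93.8) and 278.6 for Rpl8 (208.6 to 221.3). The same liver read 26.88 RPKM for Rpl22 (21.32 to 22.13) and 95.04 for Rps9 (72.64 to 76.76). Young WT library 2 was low for Rpsa at 90.76 RPKM (103.3 to 107.8), and young WT library 5 was high for Rpl22 at 24.96 RPKM (20.98 to 22.02). Among old livers with WT partners, library 2 was high for Rps13 at 31.71 RPKM (25.1 to 26.9).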

How the results depend on the processing

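With heterozygous against old partners 26 ribosomal protein genes fell. After median-of-ratios scaling over all genes or over the tested genes 0 fell (5.67% and 6.44% of all genes fell). With Alb left out of the total 3 fell (13.3%), in a fit of only these groups 1 (14.4%) and with the replicate number as a block 17 (20.8%). The count went up to 38 with reads on genes as the total (25.1%). Leaving out 1 library gave 3 to 62, where 12.4% to 28.6% of all genes fell. In old livers with old partners against young WT livers 11 rose. There 0 rose after median-of-ratios scaling over all genes or over the tested genes (3.38% and 4.09% of all genes rose). In the fit of only these groups 0 rose as well (3.84%). With reads on genes as the total 2 rose (4.67% of all genes) and with the replicate block 6 (8.06%). With Alb left out of the total 13 rose (11.3%). Leaving out 1 library gave 0 to 47, where 3.46% to 12.1% of all genes rose. With heterozygous against WT partners (0 passed), 1 passed after scaling over all genes (20.3% of all genes) and 0 after scaling over the tested genes (18.5%). With reads on genes as the total 3 passed (40.2%). With 1 library left out 0 to 4 passed, all lower, where 18.7% to 33.8% of all genes fell. In the heterozygous pairs 8 passed with reads on genes as the total (28.5% of all genes) and 0 in every fit without 1 library. For the difference of the age differences, leaving out 1 library gave 0 to 1, and 13.2% of all genes were called in the fit that gave 1.

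Small differences changed sign. With the values centred on the ribosomal protein genes, WT against old partners gave 0.11 for Rpl3, 0.12 for Rps2 and 0.12 for Rpl29. For heterozygous against old partners, Rpl29, Rpl13 and Rps2 stood at 0.083, 0.093 and 0.12 after scaling, at 0.034, 0.045 and 0.072 with scaling over the tested genes and at 0.12, 0.13 and 0.15 when centred. For heterozygous against WT partners, Rps23 stood at 0.0093 after scaling, and Rpl8 and Rps28 at -0.033 and -0.0020 with reads on genes as the total. Between the young groups Rplp1 stood at -0.052 after scaling, -0.017 without Alb, -0.060 with scaling over the tested genes and -0.11 when centred. In the heterozygous pairs Rpl3, Rpl13 and Rps12 stood at -0.066, -0.054 and -0.031 with reads on genes as the total. In old livers with old partners against young WT livers, Rpl41 stood at -0.071, -0.043 and -0.19, and Rps2 at -0.037, -0.0087 and -0.15, after scaling, with scaling over the tested genes and when centred. Rps21 stood there at -0.020 after scaling and -0.14 when centred. For the difference of the age differences, Rps12, Rpl12 and Rpl3 stood at 0.21, 0.21 and 0.21 after scaling, at 0.042, 0.043 and 0.046 without Alb, at 0.17, 0.17 and 0.18 with scaling over the tested genes and at 0.12, 0.12 and 0.12 when centred. With 1 library left out, the ranges that crossed 0 in the heterozygous pairs were -0.038 to 0.046 for Rpl13, -0.045 to 0.042 for Rpl3 and -0.021 to 0.093 for Rps12, and in the WT pairs -0.11 to 0.031 for Rpl28. With WT against old partners they were -0.16 to 0.0028 for Rpl29 and -0.15 to 0.00045 for Rpl3, and with heterozygous against WT partners -0.063 to 0.041 for Rpl8 and -0.017 to 0.087 for Rps28. The range was -0.033 to 0.14 for Rpl41 in old livers with old partners against young WT livers and -0.066 to 0.057 for Rplp1 between the young groups. The causes were not tested.

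Replicate numbers were not taken to pair the libraries: of 35 same-numbered pairs 11 had a correlation of deviations over 0.1 (range -0.53 to 0.28), and in 9 of the 35 the library correlated best with its own number. All 5 pairs of old livers with WT partners and young WT livers were positive (0.077 to 0.28), 4 of them over 0.1 and 3 best with their own number, a hint from the data and not the design; 0 ribosomal protein genes passed there with the block too. The planned edgeR fit was not run, since the deposited unit is RPKM. For heterozygous against old partners, limma voom on the recovered reads gave 28 that fell in place of 26 (22.9% of all genes fell). For old livers with old partners against young WT livers it gave 11 that rose, beside 11 in the main fit (8.53% of all genes rose). With 5 livers a group, the median SE of a ribosomal protein gene was 0.097.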
